A study of Mus musculus with 6 samples.

Results

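Transforming growth factor beta (TGF-beta) signalling was examined through 9 genes, the 3 ligands Tgfb1, Tgfb2 and Tgfb3, the receptors Tgfbr1, Tgfbr2 and Tgfbr3, the latency proteins Ltbp1 and Ltbp2, and the TGF-beta induced matrix protein Tgfbi. These 9 were taken by name out of 18193 genes that had a probe set on the array naming that gene alone, and all 9 passed the filter on dim signal. The arrays compared mouse lung cells sorted at embryonic day 18 (E18) for Muc1 and Pdpn, the bipotent progenitors of the series title, with adult lung cells isolated as positive for Lyz2 and EpCAM, its alveolar type II cells. Each group had 3 biological replicates and 1 Affymetrix array per replicate. Age and cell population differ together between the groups, so they cannot be told apart. Strain, sex, adult age, genotype and any pooling of animals were not given in the sources used here. The labels name no treatment.

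TGF-beta is secreted as a dimer held inactive by its own propeptide. Latent TGF-beta binding proteins tie this complex to fibrillin microfibrils and other matrix, from which integrins and proteases release it. The active ligand assembles type II and type I receptor kinases, which phosphorylate Smad2 and Smad3. In the lung the pathway is known for its part in branching, alveolar formation and fibrosis.

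Tgfb2, Tgfb3 and Ltbp2 were lower in the adult arrays by 13.3-fold, 5.60-fold and 10.5-fold. The receptors Tgfbr1 and Tgfbr2 were well above the floor on all 6 arrays and differed by -0.48 and -0.15 on the log2 scale, which did not pass the test. Tgfb1, Tgfbr3, Ltbp1 and Tgfbi did not pass either. Of the 9 genes 3 were called lower, 0 were called higher and 6 were not called, by limma with an adjusted p under 0.05 over all genes. Over all 13335 genes tested 5.98% were called, 4.57% lower and 1.41% higher in the adult arrays. At an unadjusted p under 0.05 limma gave 4 of the 9 genes as lower and 0 as higher in the adult arrays, where all genes gave 15.1% and 6.49%. For 4 of the 9 genes every adult array lay below every E18 array, as for 18.8% of all genes, and for 0 of the 9 every adult array lay above, as for 10.1% of all genes. The median difference of the 9 genes, adult minus E18, was -0.88, and that of all genes was -0.17. That overall median moved to -0.05 under quantile normalization and to -0.02 under median centring, so small differences are close to the shift that the scaling makes. Values are log2 of the deposited signal, on which 1 unit is a 2-fold step, and are listed in the order of replicates 1, 2 and 3. A signal is called under the floor when it lies below the 40th percentile of its array.

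**Figure D1:**
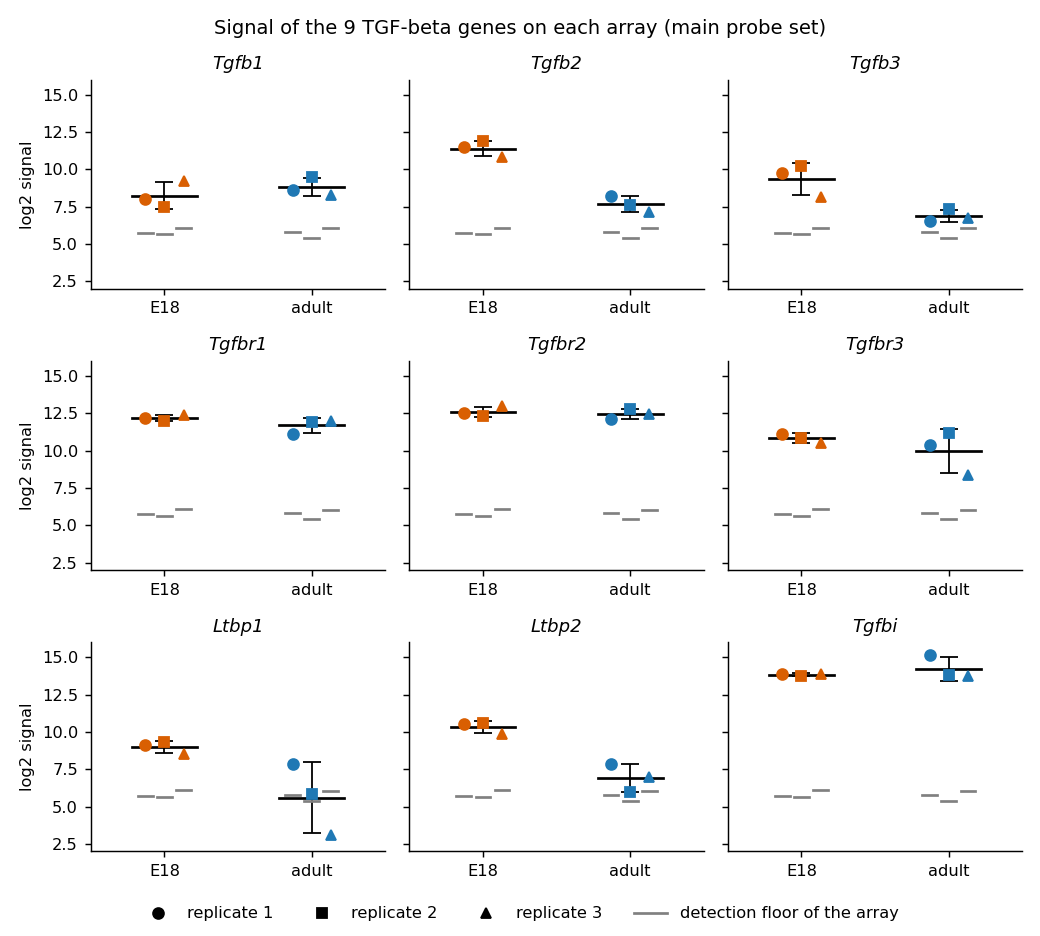
Log2 signal (vertical axis) of the main probe set of each of the 9 genes on the 3 E18 and 3 adult arrays, with a symbol per replicate, the group mean and SD in black and the floor of each array as a grey dash. The groups are apart for Tgfb2, Tgfb3, Ltbp1 and Ltbp2 and overlap for the other 5 genes.

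The arrays were not alike within a group, which bears on every gene below. E18 replicates 1 and 2 correlated at 0.983 across genes, and adult replicates 1 and 3 at 0.777. Genes are not independent replicates, so these correlations only describe how alike the arrays were. The summed signal of 8 general epithelial markers was 3653, 4509 and 51748 in adult replicates 1, 2 and 3, against 22661 to 29862 in the E18 arrays, so adult replicate 3 stood apart from the other adult arrays. Epcam, the adhesion molecule used to isolate the adult cells, had adult signals of 7.85, 8.50 and 10.68. Its E18 signals were 10.69, 11.31 and 9.26, a difference of -1.41 (limma adjusted p = 0.3591). The E-cadherin gene Cdh1 differed by -1.65 (limma adjusted p = 0.3971). Lyz2, also used to isolate the adult cells, was lower in the adult than in the E18 arrays (-2.86, SE 0.25, limma adjusted p = 0.00303). Sftpc, the surfactant protein that defines type II cells, was 14.56 ± 0.10 in the adult and 14.04 ± 0.14 in the E18 arrays (SD, n = 3), and Sftpb, another surfactant protein, differed by -0.05. The mean log2 signal of 24 poly-A control probe sets was 13.66 and 14.17 on the third array of the E18 and adult groups, against 6.87 to 9.61 on the other 4, so replicate 3 also stood apart technically in both groups. With these 2 arrays as a term in the fit, an alternative added after seeing the data, the same count of 3 of the 9 genes was called, Tgfb2, Tgfb3 and Ltbp2 (adjusted p = 0.0051, 0.0316 and 0.0190). In such bulk samples fewer cells of a type and less RNA per cell cannot be told apart.

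Among the ligands, Tgfb2 is the isoform whose loss in mice affects the heart, lung and many other organs. Its signal was 11.47, 11.87 and 10.84 at E18 and 8.22, 7.59 and 7.17 in the adult. Every E18 array lay above every adult array, and all 6 values were above the floor. The means were 11.39 ± 0.52 and 7.66 ± 0.52 (SD, n = 3), a difference of -3.73 (SE 0.41, limma adjusted p = 0.00583). The replicates with the same number differed by -3.26, -4.27 and -3.67. Leaving out any 1 of the 6 arrays gave differences from -4.01 to -3.49, each called.

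The other 3 probe sets of Tgfb2 were also lower in the adult arrays, with no overlap between groups in any. The next brightest were both called, with differences of -3.27 (95% interval -4.12 to -2.43) and -2.53 (-3.42 to -1.64). The dimmest was under the floor on all 3 adult arrays, and its E18 mean was at least 1.92-fold above the adult floor (measured means 6.70 and 3.51, limma adjusted p = 0.0597). In the fit of every probe set, 5 of the 18 tested probe sets of the 9 genes were called lower and 0 higher, against 3.51% called lower and 0.929% called higher among all 23674 probe sets. Of the 5 called, 3 belong to Tgfb2, so they do not count as separate genes. The 5 member probe sets that were not tested were under the floor on at least 5 of the 6 arrays, and each belonged to a gene with a brighter probe set.

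**Figure D2:**
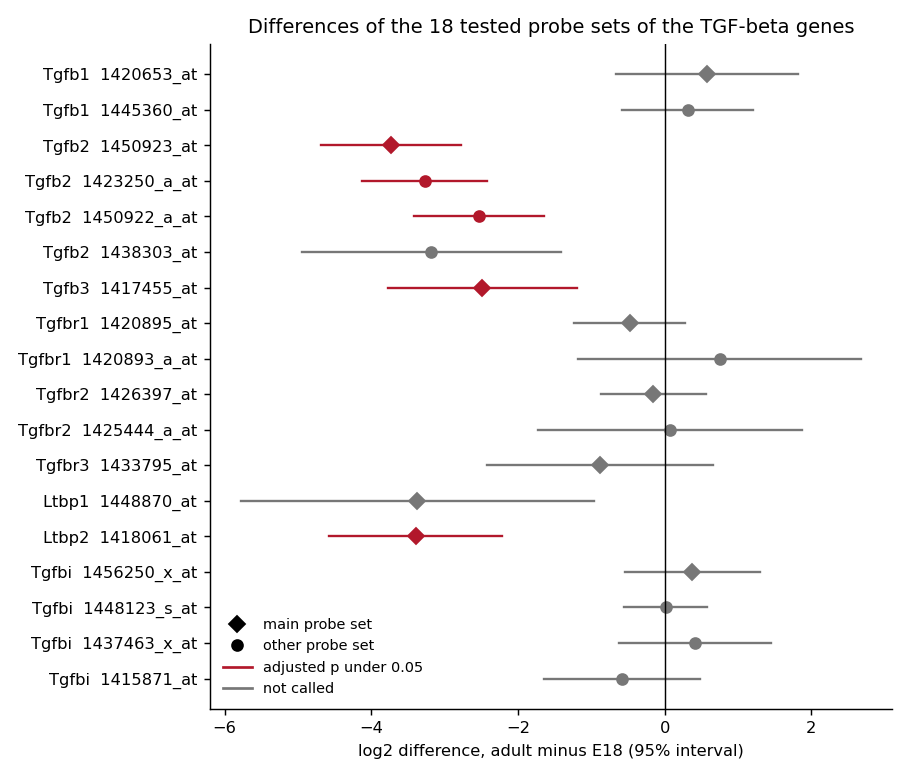
Log2 difference between adult and E18 arrays (horizontal axis, bars are 95% intervals of the limma fit) for the 18 tested probe sets of the 9 genes, diamonds marking the main probe set of each gene and red those called. The 4 probe sets of Tgfb2 lie between -3.73 and -2.53, and the 4 of Tgfbi lie on both sides of 0.

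Tgfb3, a ligand known from palate fusion and lung development, was lower in the adult arrays at the edge of the threshold. Its signal was 9.75, 10.21 and 8.16 at E18 and 6.57, 7.34 and 6.77 in the adult. The groups did not overlap, and E18 replicate 3 was the nearest to the adult arrays. The means were 9.38 ± 1.07 and 6.89 ± 0.40 (SD, n = 3), a difference of -2.49 (SE 0.57, limma adjusted p = 0.0483). The call was lost without E18 replicate 1 (adjusted p = 0.212), E18 replicate 2 (0.2095), adult replicate 1 (0.1298) or adult replicate 2 (0.1117), and after quantile normalization (0.0895) or median centring (0.0826). The difference was below 0 in each of these, from -2.71 to -2.07. Replicates 1 and 2 alone gave -3.03 (adjusted p = 0.0088), and replicate 3 gave -1.39.

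Tgfb1, the ligand most studied in fibrosis and immune regulation, was not called in either direction. Its signal was 8.03, 7.45 and 9.22 at E18 and 8.64, 9.49 and 8.30 in the adult. The highest E18 array lay among the adult arrays, and the groups overlapped. The difference was 0.58 (95% interval -0.69 to 1.84, limma adjusted p = 0.5899), and that of its other probe set was 0.31 (-0.58 to 1.21). Replicates 1 and 2 alone gave 1.32 (adjusted p = 0.0786), while replicate 3 gave -0.92, so the sign differed between replicates. The median difference of 8 leukocyte markers was likewise larger in the former, at 3.25, than in the latter, at 0.70, and their part in the Tgfb1 values was not tested.

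Sequences before the gene starts are shown for Tgfb2 and Ltbp2, the called genes that the RefSeq promoter table (GRCm38.p6) holds. The table matched 7 of the 9 genes, with 9 windows in all, and windows were cut to the 250 bases before the start. Each is printed 5′ to 3′ on the strand of the gene, with the letters CAGAC, the core that Smad3 and Smad4 bind, in capitals on either strand (CAGAC or GTCTG).

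Tgfb2, minus strand, chr1:186705990-186706239: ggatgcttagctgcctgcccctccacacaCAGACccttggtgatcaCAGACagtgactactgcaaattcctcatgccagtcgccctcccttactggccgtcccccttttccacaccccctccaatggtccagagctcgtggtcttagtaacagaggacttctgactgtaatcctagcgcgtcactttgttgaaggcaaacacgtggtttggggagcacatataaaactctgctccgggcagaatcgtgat

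Ltbp2, minus strand, chr12:84876492-84876741: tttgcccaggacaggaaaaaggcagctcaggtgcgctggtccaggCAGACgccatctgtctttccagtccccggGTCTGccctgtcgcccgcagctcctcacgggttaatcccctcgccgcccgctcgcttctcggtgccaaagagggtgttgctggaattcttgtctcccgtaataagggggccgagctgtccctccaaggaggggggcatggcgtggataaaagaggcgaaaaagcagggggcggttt

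CAGAC occurred 2 times in the Tgfb2 window, 221 and 204 bases before the start, and 2 times in the Ltbp2 window, 205 and 176 bases before it. Counting these 2 windows, CAGAC was present in 7 of the 9 windows of the genes examined. It occurred in 42.2% of all 32851 windows of this length, so its presence does not set the called genes apart. The Tgfb2 window also held a TATAAA 31 bases before the start, a motif present in 12.4% of windows on either strand, and a CACGTG 51 bases before it, present in 6.02%. The Tgfb1 window held neither, nor CAGAC, but held GGGCGG, the GC box letters, 5 times on either strand, and 32.7% of all windows held it at least 1 time. These matches describe letters only, and the arrays do not measure binding.

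The kinase receptors were well above the floor on every array and did not pass the test. Tgfbr1, the type I kinase, was 12.18, 11.95 and 12.36 at E18 and 11.14, 11.94 and 11.98 in the adult. Adult replicate 1 was the lowest, adult replicate 2 lay just under the lowest E18 array, and adult replicate 3 lay within the E18 range. The difference was -0.48 (95% interval -1.23 to 0.27, limma adjusted p = 0.4407).

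Tgfbr2, the type II kinase that binds the ligand, was 12.51, 12.32 and 12.99 at E18 and 12.14, 12.81 and 12.42 in the adult. The groups overlapped over most of their range. The difference was -0.15 (95% interval -0.87 to 0.57, limma adjusted p = 0.8127), and its sign turned with median centring. The intervals of Tgfbr1 and Tgfbr2 exclude a fall as large as that measured for Tgfb2, which says nothing of smaller differences.

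Tgfbr3, or betaglycan, is a coreceptor that presents TGF-beta, above all Tgfb2, to the kinases. It was 11.14, 10.87 and 10.52 at E18 and 10.37, 11.17 and 8.35 in the adult. Adult replicate 3 stood well below the rest, while adult replicate 1 lay just under the E18 range and adult replicate 2 just above it. The difference was -0.88 (95% interval -2.45 to 0.69, limma adjusted p = 0.5009), and it was -0.07 without adult replicate 3. The other probe sets of the receptors were near or under the floor, and neither of those tested was called.

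The latency proteins were lower in every adult array than in any E18 array, but only Ltbp2 passed. Ltbp2 is a matrix protein of the latent TGF-beta binding family that binds fibrillin microfibrils but not the latent ligand itself. It was 10.55, 10.59 and 9.86 at E18 and 7.85, 5.97 and 6.99 in the adult. All 6 values were above the floor, and adult replicate 2 was the lowest. The means were 10.33 ± 0.41 and 6.94 ± 0.94 (SD, n = 3), a difference of -3.40 (SE 0.52, limma adjusted p = 0.0137). The call was lost without E18 replicate 1 (adjusted p = 0.0857) or E18 replicate 2 (0.0833), with differences of -3.29 and -3.27.

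Ltbp1, which binds the latent ligand covalently, was 9.11, 9.32 and 8.52 at E18 and 7.85, 5.86 and 3.12 in the adult. The adult arrays were spread widely, with an SD of 2.37 against 0.41 in the E18 arrays, and adult replicate 3 was under its floor. The difference was -3.37 (SE 1.07, limma adjusted p = 0.1195), and counting adult replicate 3 at its floor the fold was 5.26. Ltbp1 passed when adult replicate 1 was left out (-4.49, adjusted p = 0.0462) and when adult replicate 3 was left out (-2.13, adjusted p = 0.0437). Replicates 1 and 2 differed by -2.36 on average and replicate 3 by -5.40.

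Tgfbi, a secreted matrix protein named for its induction by TGF-beta, was far above the floor on all 6 arrays and was not called. Its main probe set was 13.90, 13.77 and 13.88 at E18 and 15.15, 13.78 and 13.75 in the adult. On this probe set adult replicate 1 alone was high, and the other 5 arrays lay close together. The difference was 0.38 (95% interval -0.57 to 1.33, limma adjusted p = 0.6383), and it turned to -0.08 without adult replicate 1 and to -0.23 after quantile normalization. The remaining probe sets differed by 0.01, 0.41 and -0.58 and were not called. In adult replicate 1 these probe sets were 13.88, 14.31 and 10.33. The last of these values was the lowest of the 6 arrays for its probe set, so the probe sets disagree on that array. The main probe set and that at 0.41 carry the suffix by which the manufacturer marks probes that can bind related sequences.

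**Figure D3:**
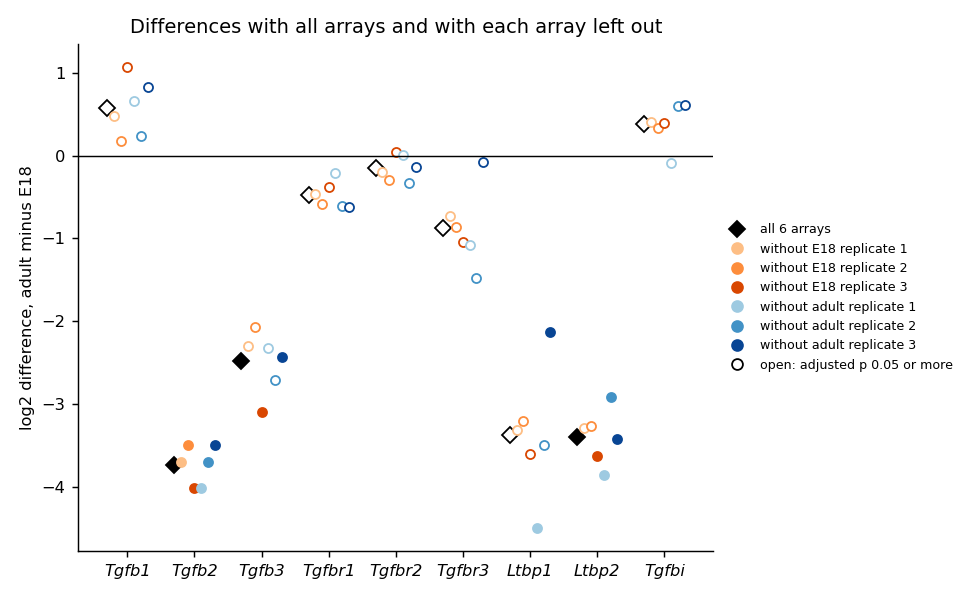
Log2 difference between adult and E18 arrays (vertical axis) of each of the 9 genes with all 6 arrays (diamonds) and with each array left out (circles), filled where the limma adjusted p was under 0.05. Tgfb2 stays between -4.01 and -3.49 and is filled throughout, while Tgfb3 and Ltbp2 are open in some fits and Ltbp1 in most.

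The rest of the pathway was read from 5 lists with 85 genes matched on the array, 83 of them tested. In all 20 were called lower and 0 higher in the adult arrays. Over all 13335 genes tested 4.57% were called lower and 1.41% higher, so 76.4% of the genes called were lower. Among 19 genes of latency, storage and activation, 7 fell, none rose and 12 were not called (median difference -2.002). Fbn2, a fibrillin of fetal microfibrils, was 29.2-fold lower when adult values are raised to the floor, at 10.81 ± 0.29 and 5.49 ± 0.81 (-5.32, SE 0.47, limma adjusted p = 0.00303). Aspn, a small leucine-rich proteoglycan that binds TGF-beta, was under the floor on all adult arrays and was at least 9.04-fold lower (adjusted p = 0.00303). The gelatinase Mmp2 was 17.5-fold lower (-4.13, SE 0.36, adjusted p = 0.00303), and Ltbp4, a further latent TGF-beta binding protein, was 8.51-fold lower (-3.09, SE 0.38, adjusted p = 0.00868). Ltbp3, named after its values were seen, did not pass (-2.002, adjusted p = 0.0895), although its groups did not overlap.

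The integrin subunits that release TGF-beta from its latent complex were not called. Itgb6, the epithelial subunit of the integrin alpha v beta 6, was singled out with its values known, as was its partner Itgav. It was 8.21, 8.39 and 10.70 at E18 and 2.88, 2.86 and 6.83 in the adult, and it was the highest in the third replicate of each group. The difference was -4.91 (limma adjusted p = 0.0552), with adult replicates 1 and 2 under the floor, and -3.09 with those at the floor. Itgav, which forms this and other integrins, differed by 0.20 (adjusted p = 0.8342).

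Among 28 genes known to respond to TGF-beta, 12 fell, none rose and 16 were not called (median -1.90). Lox, the collagen crosslinking enzyme, was 36.2-fold lower (-5.18, SE 0.62, limma adjusted p = 0.0081), and Postn, a matrix protein of fibroblasts, also fell (-4.07, SE 0.43, adjusted p = 0.00504). The collagen genes Col1a1 and Col1a2 differed by -5.14 (SE 0.86, adjusted p = 0.0184) and -3.96 (SE 0.68, adjusted p = 0.0198). Several of the genes that fell are structural genes of fibroblasts and smooth muscle, and 5 of the 20 pathway genes called are also on the marker lists of those cells used here, namely Dcn, Tagln, Col1a1, Col1a2 and Col3a1. Without E18 replicate 2 only 1 target gene was called, without E18 replicate 1 there were 2, without adult replicate 2 there were 3 and without E18 replicate 3 there were 4. The latency list had 3 without E18 replicate 1 or E18 replicate 2.

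The 3 remaining lists held 1 called gene in all. Among 10 Smads and other transducers the endocytic adaptor Dab2 fell (-2.36, SE 0.52, limma adjusted p = 0.0431), the other 9 were not called, and the list's median was 0.06. Leaving out any 1 of the arrays other than adult replicate 3 left 0 genes of this list called, and leaving out that array gave 2. Smad2, Smad3 and Smad4, the signal-carrying Smads, named after their values were seen, differed by -0.16, 0.34 and 0.29 and were not called. Tab2, an adaptor of the kinase Map3k7, differed by 0.53 (adjusted p = 0.5381).

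Of 16 inhibitors 0 passed with limma in either direction and the median was -0.30. At an unadjusted p under 0.05 there were 2 lower and 0 higher. The brightest members, Fkbp1a, which holds the type I receptor inactive, and Skil, a Smad corepressor, differed by -0.47 (adjusted p = 0.3708) and 0.56 (adjusted p = 0.3769). Smad7, the inhibitory Smad that TGF-beta induces, also named after its values were seen, differed by -0.15 (adjusted p = 0.8345). Of 10 related ligands and receptors 0 passed, with a median of -0.75, and at an unadjusted p under 0.05 there were 3 lower and 0 higher. The activin receptors Acvr1b and Acvr1 differed by -0.24 (adjusted p = 0.6736) and -1.13 (adjusted p = 0.3188). Without adult replicate 3, 4 genes of this list and 3 of the inhibitors were called.

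**Figure D4:**
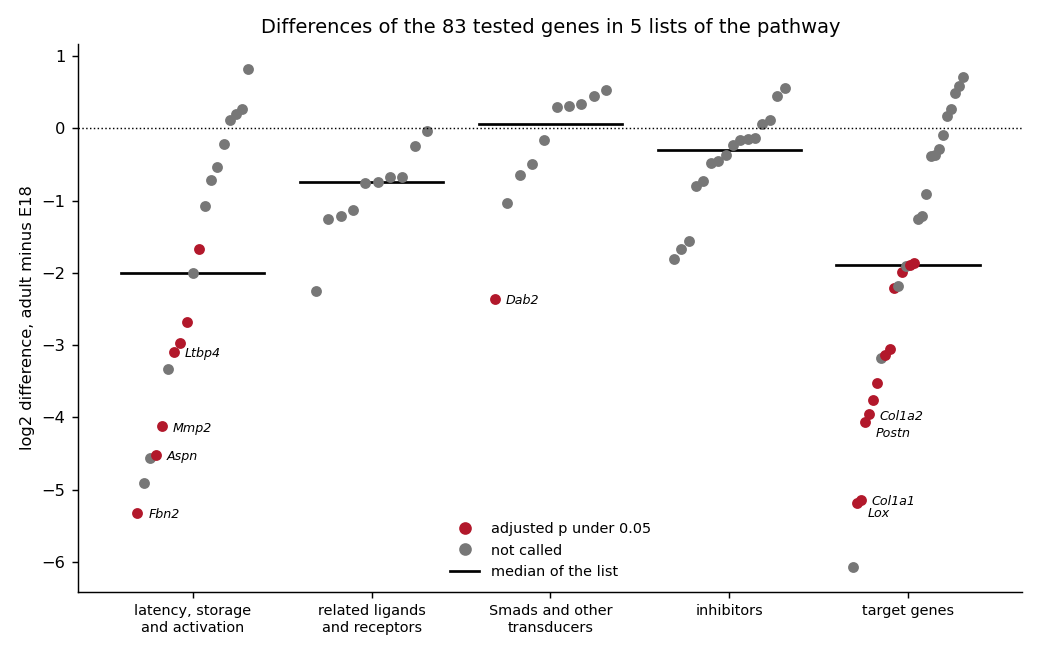
Log2 difference between adult and E18 arrays (vertical axis) of the 83 tested genes in 5 lists of the pathway, red where the limma adjusted p was under 0.05, with the median of each list as a black bar. The 20 red points lie below 0, 19 of them in the latency and target lists.

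The genes whose profile over the 6 arrays came closest to a called gene were found by the root mean square difference of log2 values, each gene centred on its own mean. For Tgfb2 they were Col14a1, a fibril-associated collagen, at 0.19, the transcription cofactor Zfpm2 at 0.22 and Mmp2 at 0.27. For Tgfb3 they were the prostaglandin transporter Slco2a1 at 0.23, the FGF signalling antagonist Il17rd at 0.27 and Fxyd1, a regulator of the sodium pump, at 0.27. For Ltbp2 they were Lrrc17 at 0.15, the proprotein convertase Pcsk5 at 0.21 and Loxl1, an elastin crosslinking enzyme, at 0.23. The measure includes the difference between the 2 groups, which chose these 3 genes, and is given as a description.

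Markers of several other cell types moved with the called genes. The counts of this and the following marker lists stand beside 4.57% called lower and 1.41% higher over all genes tested. Of 9 fibroblast markers 8 fell, and their summed signal ranged from 46776 to 64090 in the E18 and from 7722 to 15229 in the adult arrays. The fibroblast median was -3.96, beside -3.73 for Tgfb2 and -3.40 for Ltbp2. Of 7 smooth muscle and pericyte markers tested 3 fell, with sums of 5818 to 17992 and 1450 to 6818 over the 8 matched, and Myh11 and Cnn1 were under the floor on all adult arrays. Acta2, the smooth muscle actin, differed by -1.90 (adjusted p = 0.2928), and Myh11, the smooth muscle myosin, was at least 3.23-fold lower.

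Of 8 endothelial markers 4 fell, with sums of 5094 to 19472 and 2178 to 2744, and Tie1 was under the floor on all adult arrays. Pecam1 and Cdh5, adhesion molecules of endothelium, differed by -3.50 (adjusted p = 0.0598) and -3.29 (adjusted p = 0.0454). Pecam1 was under the floor on adult replicates 1 and 3, and with those values at the floor it differed by -1.96. Cdh5 was under it on adult replicate 3. Among E18 arrays replicate 3 had the lowest endothelial, smooth muscle, fibroblast and type II sums. Its mesothelial, type I, general epithelial, leukocyte and macrophage sums were the highest of the E18 arrays. The mesothelial markers did not move together there. Msln and Krt19, the latter also an epithelial marker here, were the highest of the E18 arrays, and Wt1, Upk3b and Lrrn4 the lowest. The mesothelial median departed from the mean of the 6 arrays by 1.55, 2.04 and 0.86 in E18 replicates 1, 2 and 3. E18 replicate 3 also had the lowest E18 signals of the main probe sets of Tgfb2, Tgfb3, Ltbp1 and Ltbp2. The other called probe sets of Tgfb2 were not lowest there. They were 9.97, 10.16 and 10.09, and 8.80, 8.83 and 9.11, in E18 replicates 1, 2 and 3. The dimmest Tgfb2 probe set was lowest there, at 6.30. Of 5 mesothelial markers 3 fell, with sums of 8449 to 11648 and 859 to 7309, Msln by 4.62 on the log2 scale and Wt1, under the floor on all adult arrays, at least 2.72-fold. The adult sum of 7309 was that of adult replicate 3, where Krt19 was 12.78. Msln, Wt1, Upk3b and Lrrn4 were 7.34, 4.50, 5.46 and 5.05 on that array. Of 10 type I cell markers 6 fell, among them Pdpn, used to sort the E18 cells, with sums of 65382 to 89660 and 15410 to 22872, and Ager and Hopx, both abundant in type I cells, differed by -1.36 and -0.90 and were not called. The part of these cell types in the values of Tgfb2, Tgfb3 and Ltbp2 was not tested.

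The type II list held 1 gene that fell of 9, Lyz2, and its sums were 56925 to 74316 in the E18 and 48516 to 80794 in the adult arrays. Of 8 leukocyte markers 2 rose, Cd2 and Cd28, with sums of 33421 to 46626 in the E18 and 51521 to 138097 in the adult arrays. At an unadjusted p under 0.05 limma gave 6 leukocyte markers as higher and 0 as lower, beside 6.49% and 15.1% of all genes. For 6 of the 8 every adult array lay above every E18 array, as for 10.1% of all genes. Of 8 macrophage markers 0 passed with limma (2 lower and 1 higher at an unadjusted p under 0.05), with sums of 26622 to 37395 and 25356 to 56392. Ptprc, the pan-leukocyte antigen, was bright on all arrays, at 13.31 ± 0.48 and 14.43 ± 0.68 (SD, n = 3). Cd3e, of the T cell receptor complex, was under the floor on all E18 arrays and above it on all adult arrays (adjusted p = 0.0591), and the macrophage markers Cd68 and Csf1r differed by -0.14 and 0.55. None of 7 epithelial markers tested passed with limma, also at an unadjusted p under 0.05, and their median difference was -2.83 over replicates 1 and 2 but 0.82 for replicate 3. Tgfb2 differed by -3.76 over replicates 1 and 2 and by -3.67 for replicate 3, and Ltbp2 by -3.66 and -2.88. Tgfb2 and Ltbp2 were lower on every adult array than on any E18 array. The fibroblast marker median departed from the mean of the 6 arrays by -0.63, -2.35 and -2.77 on adult replicates 1, 2 and 3. The part of epithelial or fibroblast content in the values of these genes was not tested.

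**Figure D5:**
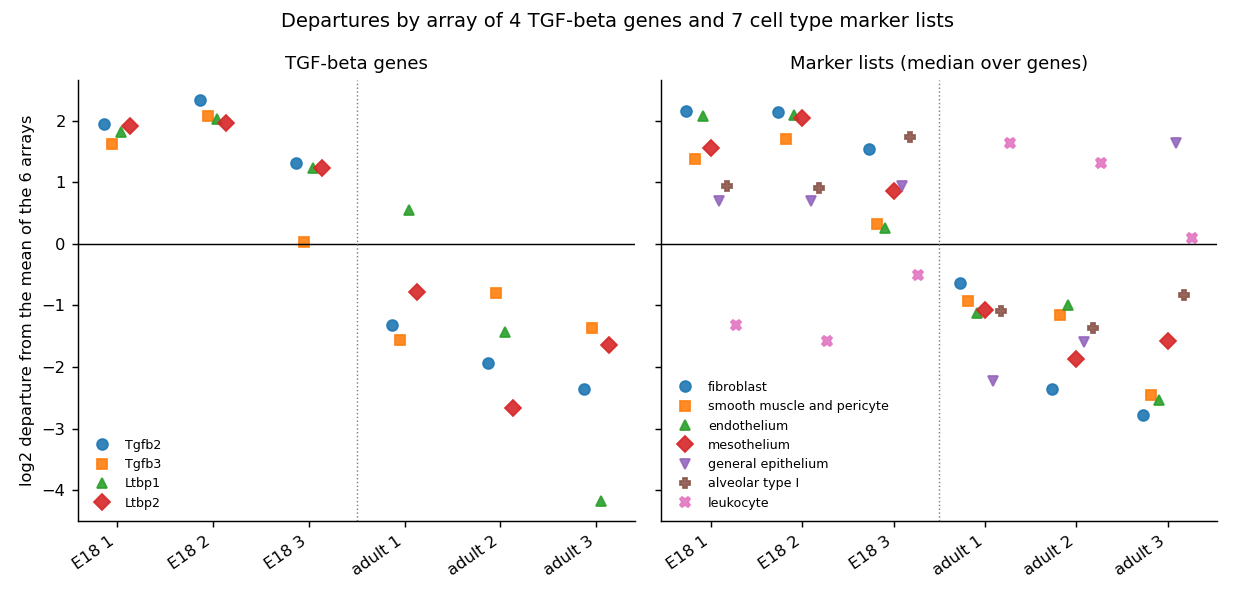
Log2 departure from the mean of the 6 arrays (vertical axis) on each array, for Tgfb2, Tgfb3, Ltbp1 and Ltbp2 at left and for the median of 7 marker lists at right. Fibroblast, smooth muscle, endothelial, mesothelial and type I markers are high in E18 and low in adult arrays, as the 4 genes mostly are. The exceptions among the genes are Ltbp1 in adult replicate 1 at 0.55 and Tgfb3 in E18 replicate 3, near the mean at 0.03. Epithelial markers are high in adult replicate 3.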

How the data were processed

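Per the labels' protocols, total RNA from each sample was amplified with an Affymetrix kit in 2 cycles and biotinylated for a 3' expression array. The deposited values are linear signal intensity per probe set, for which the submitters' processing notes name MAS5 and the Affymetrix Expression Console. Each array had a mean of 500.003 or 500.004 once its 2% lowest and 2% highest signals were set aside. Here log2 was taken with no pseudocount or further normalization.

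Of 45101 probe sets 34945 name 1 gene. Each of 18193 genes was represented by its brightest probe set (mean log2 over the arrays). A gene was tested if it reached the floor, the 40th percentile of its array, on at least 3 arrays, which kept 13335. The floor lay at signals of 42.3 to 68.6 and is a rank, not a measured background. A fold of a value under the floor uses the floor.

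The adult and E18 arrays were tested against each other, two-sided, using limma 3.58.1 (R 4.3.3) with an intensity trend and Benjamini-Hochberg adjustment over all genes, after a check on simulated data. In that check 50 genes each were changed by 1, 2, 4 or 6 on the log2 scale. Of these 0%, 34%, 86% and 92% were recovered, and 4 of 110 calls were false. The number of arrays limits the precision, and a gene not called can still differ. Labels call the samples biological replicates and say no more of their source, so p-values measure the spread between these samples.

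The 9 genes, lists and tests were chosen with earlier results of these data known. Named were all 9 genes, up to 4 called genes of each pathway list (else its brightest, to 2), the 3 nearest profiles of called genes and the leading 2 markers of each list. The alternatives were scaling, filter, offset, floor, variance prior, probe set averaging, a replicate block, a term for arrays with high poly-A controls, and leaving out arrays.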

Additional observations from a re-analysis of the deposited data

How the results depend on the processing

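Tgfb2 was called lower in the adult arrays under all 18 alternatives run, with differences from -4.01 to -3.18 and adjusted p from 0.00234 to 0.0471. Ltbp2 was called under 15 and Tgfb3 under 8 of the 18, with no change of direction. The count of the 9 genes called ranged from 1 to 4 with 1 array left out, that of their probe sets from 2 to 7, and that of all genes from 66 (without E18 replicate 2) to 2770 (without adult replicate 3). Replicates 1 and 2 alone gave 2996 genes. With E18 replicates 1 and 2 averaged as 1 sample, an alternative chosen after seeing the data, 63 genes, 1 of the 9 genes and 2 of their probe sets were called. With the replicate block 492 of all genes and 2 of the 9 were called, and Tgfb3 was not (adjusted p = 0.0577). Same-numbered arrays had deviations from their group means that correlated at 0.04, -0.14 and -0.06 across genes, so the numbers were not taken as pairs, although the third arrays of both groups share high poly-A controls. With those arrays as a term 897 genes were called.

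Directions turned only for genes that were not called. Tgfbr2 was 0.00082 with median centring, 0.16 with probe sets averaged, 0.0542 in replicates 1 and 2 alone and -0.33 to 0.0383 with 1 array left out. Tgfbr1 was 0.14 with probe sets averaged. Tgfbi was -0.23 after quantile normalization and -0.0833 to 0.62 with 1 array left out. The cause was not tested.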

Other observations

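The ligands were also compared within each array, where the scaling of the array cancels, a comparison chosen after the values were seen. The log2 signal of Tgfb2 minus that of Tgfb1 was 3.44, 4.42 and 1.62 at E18 and -0.42, -1.90 and -1.13 in the adult, in the order of the replicates. The groups did not overlap, and the mean difference of this ratio, adult minus E18, was -4.31 (exact two-sided permutation p = 0.1, the smallest that 3 against 3 arrays can give). For Tgfb3 minus Tgfb1 the values were 1.72, 2.77 and -1.06 in the E18 and -2.07, -2.16 and -1.53 in the adult replicates, a difference of -3.06 (exact two-sided permutation p = 0.1). Of these 2 ratios neither can pass a threshold of 0.05 in this design. They describe unequal differences between groups of these probe sets, not relative amounts of the ligands.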
